A study of Marmota monax with 203 samples.

Results

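The tripartite motif (TRIM) genes encode a large family of proteins that carry a RING finger, 1 or more B-boxes and a coiled coil, followed by a C-terminal domain that differs between subfamilies. Every gene whose symbol is TRIM followed by a digit and whose mean over all liver biopsies reached a level of 0.5 CPM (read counts scaled to the size of the library) was taken as a member, which gave 47 of the 56 TRIM symbols in the files, among 17587 genes in all. TRIM59, at a mean of 0.832 CPM, lay just inside this limit, and TRIM58, at 0.491 CPM, lay just outside it. The other 8 symbols below the limit had means from 0.00423 CPM (TRIM50) to 0.426 CPM (TRIM67), and they include TRIM22 (0.0869 CPM) and TRIM69 (0.112 CPM), which are interferon-induced antiviral genes in other mammals.

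Most TRIM proteins are E3 ubiquitin ligases, and many act on the pathways through which cells sense viral nucleic acid and respond to interferon. TRIM25 and TRIM65 ubiquitinate the RNA sensors RIG-I and MDA5, TRIM14 and TRIM56 act on MAVS and on cGAS and STING signalling, TRIM21 binds antibody-coated particles in the cytosol, and TRIM5 recognises retroviral capsids. Other subfamilies are better known for other roles. The PHD-bromodomain proteins (TRIM24, TRIM28, TRIM33, TRIM66) work on chromatin, and TRIM54, TRIM55, TRIM63 and TRIM72 are proteins of striated muscle.

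RNA was sequenced from liver biopsies of adult male and female woodchucks (Marmota monax) that were chronic carriers of woodchuck hepatitis virus (WHV) after neonatal infection, placebo animals included. The placebo group received vehicle and the other group received woodchuck IFN-α (wIFN-α) at 20 µg in the period of the week 0 and week 3 biopsies and at 100 µg at weeks 7, 11 and 15. The week -3 biopsies preceded treatment, and those of weeks 19 and 23 followed it. All biopsies of weeks 0, 3, 7, 11 and 15 were taken 6 hours after a dose. Those of week 0 followed the first dose of 20 µg, and those of week 7 followed the first dose of 100 µg. Week 0 values are therefore early values after a single dose and not those of continued treatment. Biopsies numbered 12, 12, 12, 12, 10, 9, 5 and 9 in the placebo group and 11, 11, 9, 9, 8, 8, 6 and 6 in the wIFN-α group at these 8 weeks in order, and the same animals were sampled through time, so the weeks are not independent of each other. WHV-negative woodchucks are not among these groups, so every comparison is between infected livers with and without the drug.

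The 149 biopsies compared held 12072840 to 84805845 reads on genes (median 28754894). A list of 12 hepatocyte genes took 3.67% to 19.2% of the reads (median 9.80%) in 147 of them. The exceptions were the week -3 biopsies of placebo animal F1016 (0.0411%) and of wIFN-α animal F1018 (0.0300%), where skeletal muscle genes took 15.03% and 14.89%. At week 15 the 2 runs of placebo animal M1008 carry the same barcode but different values, and 10 of the 14 members described next lay above every other placebo animal in the first run and 12 in the second. The sum of both runs was used. Changes from week -3 are counted with and without F1016 and F1018, and week 15 calls with and without single animals. The week 15 levels and fold changes printed for single members include M1008.

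In the wIFN-α group, 14 of 47 members were higher at every treatment week. They were TRIM25, TRIM14, TRIM39, TRIM5, TRIM26, TRIM34, TRIM38, TRIM21, TRIM56, TRIM68, TRIM6, the readthrough entries TRIM39-RPP21 and TRIM6-TRIM34, and TRIM78P, a TRIM5-related entry named as a pseudogene. No member was lower at every treatment week, 9 were lower at 1 to 4 of them, 4 were higher at 1 to 4, and TRIM59 is in both of the latter groups. The other 21 members were not called at any treatment week, of which 17 were tested at all 5. A call needed a fold change above 1.5 and, in edgeR's quasi-likelihood test, an adjusted p (Benjamini-Hochberg over all genes tested) under 0.05. Of all genes tested at week 3, 7.24% were called higher, so about that share at most can be higher at every treatment week. Shares of all genes for the other patterns were not counted.

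At week 0, 16 of 43 members tested were called higher and 6 lower, against 10.3% and 8.15% of all genes tested. Without biopsies over 1% skeletal muscle reads, 8 were lower, the 2 more being TRIM23 and TRIM7. At week 3, 15 of 46 were higher and 1 lower, against 7.24% and 3.54% of all genes. At week 7 the members' counts were 16 and 4 of 43, beside 11.4% higher and 10.1% lower among all genes. At both later treatment weeks the share of members called higher again stood above that of all genes. The share called lower was close to that of all genes. The counts were 15 and 3 of 46 at week 11 (all genes 12.6% and 7.98%) and 16 and 3 of 43 at week 15 (all genes 13.4% and 8.83%). The median log2 fold change over the members tested was 0.14, 0.06, 0.23, 0.13 and 0.12 at weeks 0, 3, 7, 11 and 15, where the median over all genes tested lay between -0.04 and -0.01. Genes of immune and dividing cells moved at some of these weeks, and most T cell calls came at weeks 11 and 15. Of a list of 20 T cell genes, 1 of 18 tested was called higher at week 0, 11 of 18 at week 11 and 14 of 19 at week 15, when the list took 0.00603% to 0.0142% of reads (median 0.00933%) under placebo and 0.0132% to 0.0384% (median 0.0163%) under wIFN-α. Of the cytotoxic cell list, 5 of 13 were higher at weeks 0 and 3, 7 at week 7 and 9 at weeks 11 and 15, with week 15 shares of 0.00213% to 0.00418% (median 0.00303%) and 0.00444% to 0.0114% (median 0.00561%). The proliferation list had 11 of 12 higher at weeks 11 and 15. The part of these cells in the members' values was not tested. Because these are bulk biopsies, fewer cells of a type and less RNA per cell cannot be told apart for any member.

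**Figure D1:**
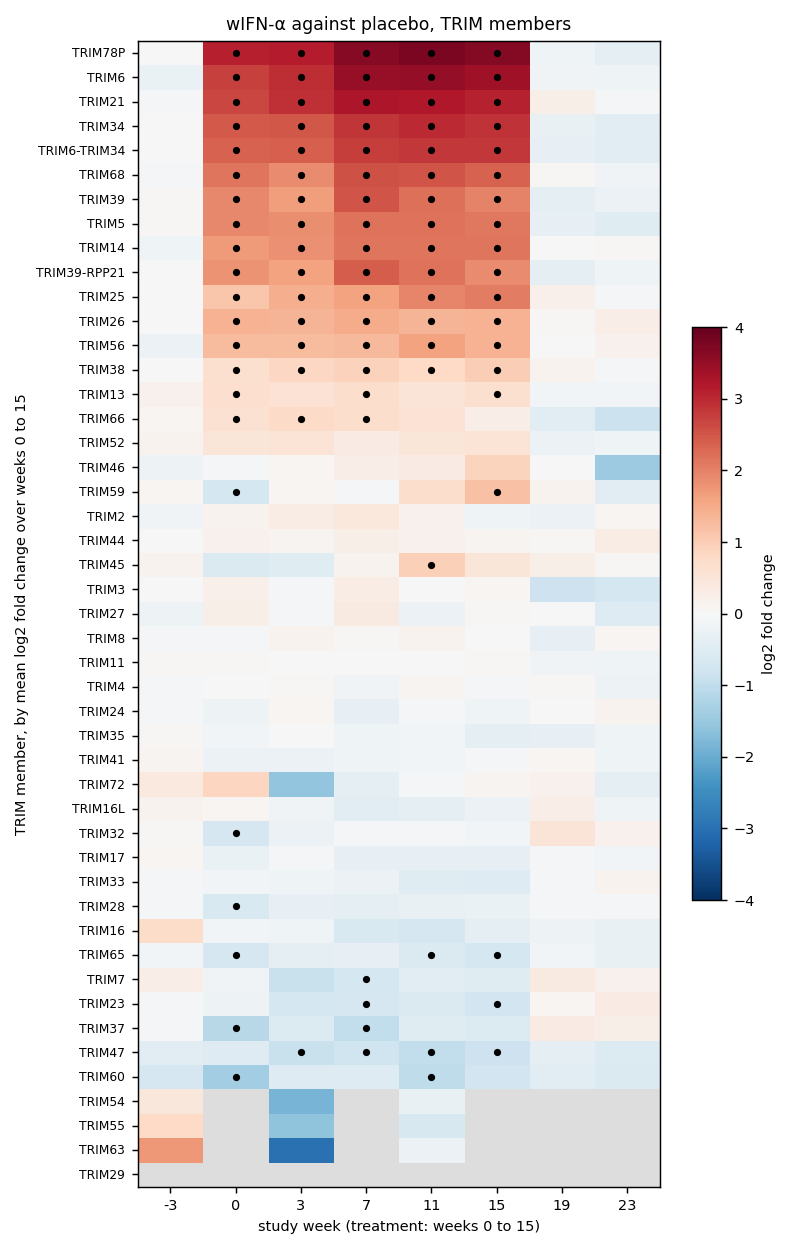
Heat map of the log2 fold change between the wIFN-α and placebo groups (colour; red higher, blue lower) for the 47 members (rows, ordered by their mean over weeks 0 to 15) at the 8 study weeks (columns). Black dots mark members called higher or lower, grey cells were not tested, and the 14 members with a dot at all 5 treatment weeks fill the top rows, with no dot at weeks -3, 19 or 23.

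Among the sensors' ligases and adaptors, TRIM25, the E3 ligase of RIG-I and a cofactor of the antiviral protein ZAP, ran from 64.5 to 91.9 CPM (median 78.4) in the placebo group and from 117 to 229 CPM (median 170) in the wIFN-α group at week 0. At week 15 the placebo range was 74.4 to 106 CPM (median 87.0) and the wIFN-α range 285 to 422 CPM (median 353). The groups did not overlap at either week. The log2 fold change of TRIM25 was 1.12 ± 0.10 (SE) at week 0 (edgeR adjusted p = 4.60e-09), 1.45 at week 3, 1.61 at week 7, 1.94 at week 11 and 2.03 ± 0.10 at week 15 (adjusted p = 1.31e-11).

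TRIM14, which lacks a RING finger and serves as an adaptor of MAVS, spanned 19.5 to 47.9 CPM (median 33.0) under placebo and 70.5 to 149 CPM (median 122) under wIFN-α at week 0. By week 15 these ranges were 26.1 to 49.9 CPM (median 37.6) and 129 to 185 CPM (median 169). Again the groups were apart at both weeks. The TRIM14 log2 fold change was 1.69 ± 0.14 at week 0 and 2.15 ± 0.12 at week 15 (edgeR adjusted p = 4.82e-11). TRIM56, an E3 ligase of cGAS and STING signalling, had week 15 ranges of 10.9 to 16.8 CPM (median 12.1) and 30.7 to 38.3 CPM (median 32.0), a log2 fold change of 1.38 ± 0.08. At week 0 it ran from 9.26 to 17.6 CPM (median 12.3) under placebo and from 22.3 to 41.9 CPM (median 30.1) under wIFN-α, with a log2 fold change of 1.26 ± 0.13. TRIM56 thus also had no overlap of the groups at these weeks.

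TRIM21, the cytosolic antibody receptor, ranged from 7.37 to 18.6 CPM (median 10.7) in the placebo group and from 42.1 to 100.2 CPM (median 82.6) in the wIFN-α group at week 0. At week 15 it ranged from 6.66 to 15.9 CPM (median 9.52) and from 52.1 to 98.5 CPM (median 81.8). Its groups were far apart at both weeks, with log2 fold changes of 2.68 ± 0.16 and 3.07 ± 0.17 (edgeR adjusted p = 6.12e-11 at week 15). TRIM68, an E3 ligase of the androgen receptor, was a low-level member in placebo livers, at 2.72 to 4.26 CPM (median 3.84) at week 0 and 3.27 to 4.42 CPM (median 3.74) at week 15. Under wIFN-α it lay between 9.02 and 21.5 CPM (median 18.7) and between 15.5 and 22.2 CPM (median 19.2). TRIM68 had log2 fold changes of 2.13 ± 0.14 and 2.37 ± 0.08 (edgeR adjusted p = 1.24e-13 at week 15), with every treated animal above every placebo animal.

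The group of genes related to TRIM5 held the 2 highest fold changes at week 15, those of TRIM78P and TRIM6. TRIM5, the retroviral capsid restriction factor, rose from a placebo range of 24.1 to 38.6 CPM (median 31.4) to 88.4 to 147 CPM (median 129) at week 0, and at week 15 the ranges were 20.6 to 37.3 CPM (median 32.9) and 121 to 143 CPM (median 130). Its groups did not overlap, and its log2 fold change was 1.93 ± 0.10 at week 0 and 2.11 ± 0.11 at week 15 (edgeR adjusted p = 2.49e-11). TRIM34, a TRIM5 paralog, went from 13.1 to 33.4 CPM (median 21.1) to 92.3 to 162 CPM (median 123) at week 0, and from 12.8 to 28.3 CPM (median 16.0) to 114 to 136 CPM (median 128) at week 15. The log2 fold changes of TRIM34 were 2.47 ± 0.14 and 2.89 ± 0.13 (edgeR adjusted p = 3.33e-12 at week 15), with no overlap.

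TRIM6, which builds unanchored ubiquitin chains for the kinase IKKε, lay between 1.71 and 2.75 CPM (median 2.003) in the placebo group and between 8.64 and 17.4 CPM (median 15.3) in the wIFN-α group at week 0. At week 15 the ranges were 1.10 to 2.71 CPM (median 1.34) and 14.6 to 20.3 CPM (median 16.1). The lowest treated animal was above the highest placebo animal at both weeks, and the TRIM6 log2 fold change was 2.74 ± 0.12 and 3.38 ± 0.16 (edgeR adjusted p = 7.37e-12 at week 15). TRIM78P had the largest log2 fold change of the members called at week 15, 3.68 ± 0.16 (adjusted p = 3.33e-12), from 1.56 to 3.63 CPM (median 1.90) to 23.8 to 31.7 CPM (median 27.7), and 3.10 ± 0.16 at week 0, from 1.89 to 4.88 CPM (median 2.87) to 19.1 to 33.9 CPM (median 29.8). The readthrough entry TRIM6-TRIM34 went from 11.8 to 21.5 CPM (median 14.7) to 63.2 to 99.6 CPM (median 78.4) at week 0 (log2 fold change 2.35 ± 0.11), and from 6.88 to 18.0 CPM (median 10.7) to 68.4 to 86.8 CPM (median 78.1) at week 15 (2.82 ± 0.14, adjusted p = 1.33e-11). Neither entry overlapped between the groups at these weeks.

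These entries are uncertain as separate genes, because their symbols were given by homology and near-identical copies can share reads. Across the 149 biopsies TRIM34 and TRIM6-TRIM34 had a Pearson r of 0.995 on log2 CPM, and over the 104 biopsies not taken during wIFN-α treatment it was 0.957. For TRIM39 and TRIM39-RPP21 the values were 0.993 and 0.927. TRIM6 and TRIM34 were less alike off treatment (0.970 over all and 0.620 off treatment), as were TRIM5 and TRIM78P (0.966 and 0.668). TRIM34 had 0.984 and 0.828 with TRIM78P and 0.984 and 0.849 with TRIM5. TRIM6 and TRIM78P had low counts off treatment, and whether any of these pairs share reads was not tested. These correlations are descriptions of biopsies that share animals and depth. Left without the readthrough, pseudogene and TRIM16L entries, the family kept 43 members. At weeks 0, 7 and 15, 39 of them were tested, with 13 called higher at each week and 6, 4 and 3 lower. All genes gave 10.3%, 11.4% and 13.4% higher and 8.15%, 10.1% and 8.83% lower at those weeks. At weeks 3 and 11, 42 were tested, with 12 higher at each week and 1 and 3 lower, against 7.24% and 12.6% higher and 3.54% and 7.98% lower among all genes.

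The remaining members of the raised set have roles beyond sensing. TRIM39, an E3 ligase of the cell cycle and apoptosis, lay between 24.5 and 44.1 CPM (median 34.5) under placebo and between 84.5 and 159 CPM (median 150.1) under wIFN-α at week 0, and between 22.5 and 42.4 CPM (median 31.0) and 92.6 and 198 CPM (median 116) at week 15. The groups did not overlap. The log2 fold change of TRIM39 peaked at week 7 (2.52 ± 0.08) between 1.91 ± 0.12 at week 0 and 1.98 ± 0.14 at the last treatment week (edgeR adjusted p = 1.45e-09), and TRIM39-RPP21 had 1.78 ± 0.12 at week 0 (14.4 to 24.4 CPM, median 19.1, against 42.8 to 92.2 CPM, median 66.8) and 1.90 ± 0.13 at week 15 (15.1 to 24.1 CPM, median 17.3, against 51.4 to 107 CPM, median 63.4).

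TRIM26, an E3 ligase of innate signalling, had the narrowest span of log2 fold changes in the raised set, from 1.36 at week 3 to 1.47 at week 7. Its CPM ran from 30.6 to 54.7 (median 43.3) against 89.2 to 148 (median 121) at week 0, where its log2 fold change was 1.40 ± 0.10, and from 36.1 to 48.7 (median 41.8) against 101 to 130 (median 112) at week 15, where it was 1.41 ± 0.07. TRIM38, a regulator of TAB2 and of sensor sumoylation, changed least of the raised set. Its week 0 values overlapped, at 17.4 to 42.8 CPM (median 33.7) under placebo and 34.5 to 64.0 CPM (median 51.7) under wIFN-α, with 8 of 11 treated animals above every placebo animal. The log2 fold change of TRIM38 was 0.63 ± 0.13 at week 0 and 0.99 ± 0.12 at week 15 (edgeR adjusted p = 4.57e-06), when its groups no longer overlapped (19.4 to 36.2 CPM, median 30.5, against 47.6 to 62.7 CPM, median 61.0).

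**Figure D2:**
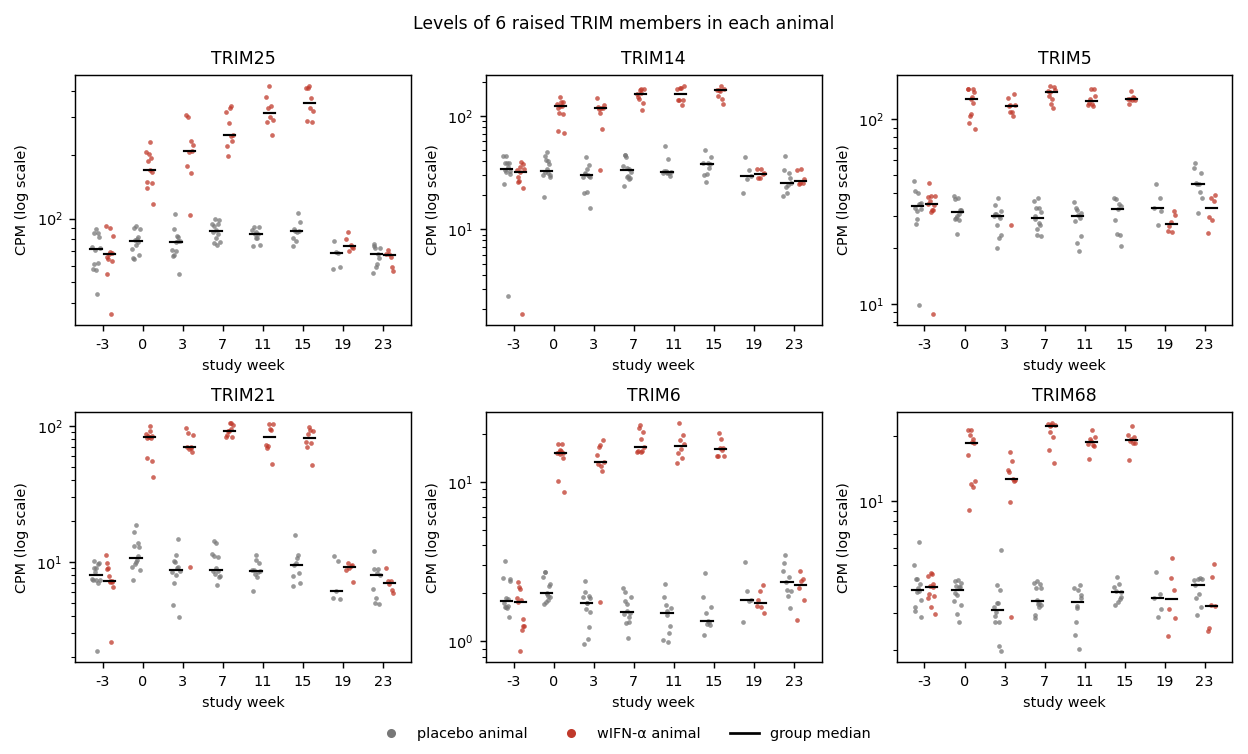
Levels of TRIM25, TRIM14, TRIM5, TRIM21, TRIM6 and TRIM68 (TMM-normalized CPM, log axis) in each placebo animal (grey) and wIFN-α animal (red) at the 8 study weeks, with group medians as black lines. The treated animals stand above the placebo animals from week 0 to week 15 except 1 animal at week 3, the groups lie together at weeks -3, 19 and 23, and the 2 lowest TRIM14, TRIM5 and TRIM21 points at week -3 are the biopsies of F1016 and F1018.

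Counted by animal, all 14 raised members lay above every placebo animal of the same week in 8 of 11 wIFN-α animals at week 0, where the other 3 had at least 13 of 14. The same was true of 9 of 9 animals at week 7, 8 of 8 at week 11 and 8 of 8 at week 15. At weeks -3, 19 and 23 no wIFN-α animal had more than 2 of the 14 above every placebo animal. The median log2 difference of an animal's 14 members from the placebo group lay between 1.204 and 2.17 at week 0 and between 1.99 and 2.42 at week 15. The 14 were picked by their calls in these same biopsies, so a gap at the treatment weeks was largely set in advance. The counts describe how far single animals followed the group and are no separate support.

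At week 3, 8 of 9 wIFN-α animals had all 14 above every placebo animal, and F1013 had 0. Its week 3 levels were 103.6 CPM of TRIM25, 33.6 of TRIM14, 26.8 of TRIM5, 9.29 of TRIM21 and 1.77 of TRIM6. Those values fell within the placebo ranges of that week, which were 54.7 to 106 CPM for TRIM25, 15.5 to 43.3 for TRIM14, 20.1 to 37.4 for TRIM5, 3.99 to 14.7 for TRIM21 and 0.965 to 2.39 for TRIM6. F1013 had a median log2 difference of 0.04 over the 14 members at week 3, but 2.04 at week 0, 2.19 at week 7, 2.32 at week 11 and 2.21 at week 15. Without F1013, edgeR called 17 members higher and 2 lower at week 3, adding TRIM13 (log2 fold change 0.65, adjusted p = 0.000454) and TRIM52 (0.59, adjusted p = 0.00958) to those higher and TRIM37 (-0.66, adjusted p = 0.00548) to those lower, and the log2 fold change of TRIM38 was 0.92. The lone member lower at week 3, TRIM47, was not called without any 1 of wIFN-α animals M1002, M1003, M1007, F1020 and F1022, which left 0 lower. Without F1018, whose week 3 biopsy was among those over 1% muscle reads, 4 members were called lower, which adds TRIM23, TRIM7 and TRIM72.

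Outside these 14, TRIM13, an E3 ligase of the endoplasmic reticulum, was called higher at weeks 0, 7 and 15. At week 15 it ran from 4.48 to 6.13 CPM (median 5.25) in the placebo group and from 7.36 to 9.07 CPM (median 8.10) in the wIFN-α group, with no overlap. At week 0 the ranges overlapped (5.11 to 9.67 CPM, median 6.32, against 8.40 to 13.0 CPM, median 10.7). Its log2 fold changes were 0.68 ± 0.10 (edgeR adjusted p = 1.43e-05) and 0.63 ± 0.08 (adjusted p = 5.64e-06), and at weeks 3 and 11 its values of 0.57 and 0.52 fell below the fold limit. TRIM66, the testis relative of the TIF1 cofactors, was called at weeks 0, 3 and 7 (log2 fold changes 0.62, 0.78 and 0.69). The week 3 call was lost without the muscle-rich biopsies (0.82, edgeR adjusted p = 0.0611) and without wIFN-α animal M1007. It ran from 1.89 to 7.49 CPM (median 4.53) against 3.76 to 9.27 CPM (median 6.26) at week 0, and from 1.81 to 4.85 CPM (median 2.35) against 2.33 to 4.65 CPM (median 3.20) at week 15. Its groups overlapped at both weeks, and at week 15 its log2 fold change was 0.25 ± 0.21 (edgeR adjusted p = 0.353). TRIM45, a regulator of MAPK signalling, was called at week 11 (0.364 to 1.28 CPM, median 0.689, against 0.848 to 1.80 CPM, median 1.53; log2 fold change 0.95 ± 0.23, edgeR adjusted p = 0.00325). TRIM52, a RING protein with an acidic loop, had log2 fold changes of 0.33 to 0.54 at the 5 weeks, all below the fold limit.

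The lowered members lay in other subfamilies as well as in the PRY-SPRY class. TRIM65, the E3 ligase of MDA5, lay between 11.7 and 25.6 CPM (median 16.3) under placebo and between 7.64 and 18.3 CPM (median 10.5) under wIFN-α at week 0. At week 15 the ranges were 16.7 to 26.0 CPM (median 20.1) and 9.03 to 15.8 CPM (median 12.4). They overlapped at week 0 and not at week 15, with log2 fold changes of -0.66 ± 0.14 (edgeR adjusted p = 0.000881) and -0.70 ± 0.11 (adjusted p = 4.25e-05), and TRIM65 was also called at week 11 (-0.59). The week 11 value lay at the fold limit and was below it with limma-voom (-0.57), when each biopsy was represented by its deepest run (-0.58) and without the muscle-rich biopsies (-0.53). TRIM25 and TRIM65, ligases of the sister sensors RIG-I and MDA5, were called in opposite directions at weeks 0 and 15.

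TRIM47, an E3 ligase with a PRY-SPRY domain, was called lower at weeks 3, 7, 11 and 15. It ran from 1.60 to 5.16 CPM (median 3.21) under placebo and from 0.923 to 5.78 CPM (median 1.88) under wIFN-α at week 0, and from 1.77 to 4.23 CPM (median 3.36) and 0.759 to 3.34 CPM (median 1.45) at week 15. The groups overlapped at both weeks. Its log2 fold change was -0.89, -0.79, -0.98 and -0.82 ± 0.27 (edgeR adjusted p = 0.0221) at the 4 called weeks, against -0.51 at week 0 and -0.42 before treatment (adjusted p = 1).

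TRIM23, which carries an ARF GTPase domain, was called lower at weeks 7 and 15 (log2 fold changes -0.66 and -0.75 ± 0.12, edgeR adjusted p = 6.00e-05 at week 15). At week 15 its ranges did not overlap, at 10.7 to 20.3 CPM (median 14.6) in the placebo group and 7.16 to 9.98 CPM (median 8.79) in the wIFN-α group. At week 0 they did (5.70 to 16.2 CPM, median 9.93, against 4.00 to 35.1 CPM, median 6.03), with a log2 fold change of -0.19 ± 0.30. The level of TRIM23 rose with the share of skeletal muscle reads (Pearson r 0.533 over 149 biopsies, 0.179 over the 127 with at most 1% of reads on muscle genes). In edgeR fits without the biopsies over that share, TRIM23 was called lower at weeks 0 (-0.63, adjusted p = 0.00851), 7 (-0.66), 11 (-0.66) and 15 (-0.79). TRIM7, which binds glycogenin, had a similar relation (r 0.532 and 0.148). It was called at week 7 (4.18 to 9.35 CPM, median 6.07, against 2.30 to 5.25 CPM, median 4.04; log2 fold change -0.71 ± 0.15), when 1 placebo biopsy and no wIFN-α biopsy exceeded 1% muscle reads. Without the biopsies over that share TRIM7 was called lower at week 7 (-0.65) and also at week 0 (-0.72, edgeR adjusted p = 0.0288), where it had -0.15 over all biopsies.

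TRIM37, a centrosomal E3 ligase mutated in mulibrey nanism, had the largest fall at week 0 after TRIM60. Its placebo range was 4.02 to 9.08 CPM (median 4.77) and its wIFN-α range 1.53 to 6.13 CPM (median 2.02), with 10 of 11 treated animals below every placebo animal. The log2 fold change of TRIM37 was -1.11 ± 0.21 at week 0 (edgeR adjusted p = 0.000201) and -0.9996 ± 0.13 at week 7, where the groups did not overlap. It was -0.55, -0.49 and -0.56 at weeks 3, 11 and 15, with adjusted p from 0.00287 to 0.0268 but fold changes below the limit.

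TRIM28, the corepressor of KRAB zinc finger proteins, and TRIM32, an E3 ligase mutated in limb girdle muscular dystrophy, were called lower at week 0 alone. TRIM28 lay between 74.2 and 103 CPM (median 90.5) under placebo and between 48.4 and 71.9 CPM (median 59.3) under wIFN-α, with no overlap and a log2 fold change of -0.60 ± 0.07 (edgeR adjusted p = 4.67e-07). Its later values ran from -0.37 to -0.26, each with an adjusted p under the threshold and below the fold limit. TRIM32 ran from 7.30 to 16.0 CPM (median 8.63) against 4.37 to 8.11 CPM (median 5.83), a log2 fold change of -0.68 ± 0.13, and had -0.22 to -0.04 at the later weeks. TRIM60 was called lower at weeks 0 and 11. It is a low-level entry, at 0.705 to 3.35 CPM (median 1.66) against 0.0522 to 1.55 CPM (median 0.403) at week 0 and 0.861 to 1.87 CPM (median 1.46) against 0.0971 to 1.11 CPM (median 0.706) at week 11, with log2 fold changes of -1.41 ± 0.41 and -1.02 ± 0.33. The groups overlapped at both weeks, and TRIM60 already had -0.67 ± 0.34 before treatment (edgeR adjusted p = 1).

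**Figure D3:**
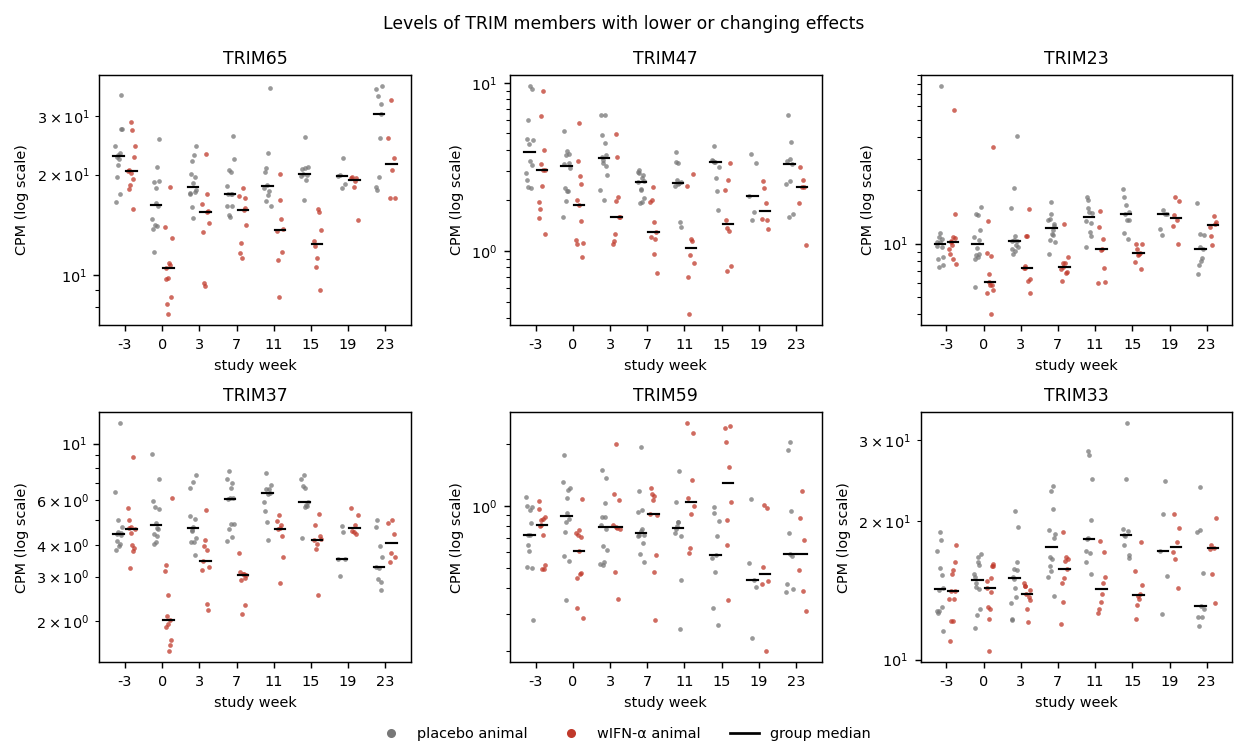
Levels of TRIM65, TRIM47, TRIM23, TRIM37, TRIM59 and TRIM33 (TMM-normalized CPM, log axis) in each placebo animal (grey) and wIFN-α animal (red) at the 8 study weeks, with group medians as black lines. TRIM65 and TRIM23 separate without overlap at week 15, TRIM37 at week 7, and TRIM59 lies lower at week 0 and higher at week 15 in the treated animals.

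The animal numbers in the labels also allow each animal to be set against its own week -3 biopsy, with the animal as a replicate block. By this measure 13 of the 14 raised members were called higher at week 0 and 14 at week 15. The 14 were picked by calls that used these same week 0 and week 15 biopsies, so the counts are no separate support. The share of all genes called by this measure is not given here. TRIM38 was the exception at week 0, with a log2 value of 0.61 (edgeR adjusted p = 0.0683). Of the other members, TRIM13 had 0.53 at week 0 and 0.39 at week 15 (adjusted p = 0.0889), TRIM66 had 0.65 at week 0 (adjusted p = 0.287), and TRIM59 had -0.76 (adjusted p = 0.0791) and 1.03 (adjusted p = 0.0846), none of which was a call.

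Of the lowered members, TRIM32 and TRIM37 kept their calls at week 0 and TRIM65 its call at week 15. TRIM28 (-0.52) and TRIM65 (-0.56) fell below the fold limit at week 0, and TRIM60 had -0.90 (edgeR adjusted p = 0.0657). At week 15 TRIM23 had -0.86 (adjusted p = 0.276) and TRIM47 had -0.69 (adjusted p = 0.457). The baselines of F1016 and F1018 were the muscle-rich biopsies. Without these 2 animals TRIM23 had -0.87 (adjusted p = 0.00332), TRIM65 had -0.66 at week 0 and TRIM60 -0.93 (adjusted p = 0.0140), all of them calls, while TRIM47 had -0.60 (adjusted p = 0.365).

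The effect at the end of high-dose treatment was compared with the mean effect at the low-dose weeks 0 and 3 in a joint fit. The difference is signed, so a negative value can mean a deeper lowering. Dose and time on treatment changed together between these weeks, so they cannot be told apart. Of 46 members tested, 2 (TRIM25 and TRIM59) had a positive difference and 1 (TRIM33) a negative difference, against 2.04% and 0.645% of all genes tested. TRIM25 had a difference of 0.70 ± 0.15 on the log2 scale (edgeR adjusted p = 0.00409). With week 3 alone as the low dose the difference was 0.54 (adjusted p = 0.172). The week 0 and week 3 effects were compared in the same way, and 0 of 46 members passed (6 at an unadjusted p under 0.05), against 0.383% of all genes, with a TRIM25 difference of 0.32 (adjusted p = 0.412). Blocking by animal, which the animal numbers in the labels allow, gave 4 positive and 3 negative differences at week 15, against 7.07% and 6.22% of all genes in the same fit. The members' shares were thus near those of all genes. The blocked fit added TRIM45 (1.16), TRIM46 (1.02), TRIM2 (-0.53) and TRIM35 (-0.47). Between weeks 3 and 0 the blocked fit gave 1 positive difference and 0 negative, against 0.649% and 0.441% of all genes. The positive difference was that of TRIM37 (0.83, edgeR adjusted p = 0.0397), whose lowering was less deep at week 3 (-0.55) than at week 0 (-1.11).

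TRIM59, a transmembrane TRIM protein linked to proliferation, was the only member called in both directions. At week 0 it ran from 0.353 to 1.76 CPM (median 0.898) under placebo and from 0.287 to 1.09 CPM (median 0.605) under wIFN-α, with a log2 fold change of -0.70 ± 0.25 (edgeR adjusted p = 0.0291). At week 15 it ran from 0.265 to 0.989 CPM (median 0.580) and from 0.351 to 2.45 CPM (median 1.29), with 1.18 ± 0.36 (adjusted p = 0.0132). The groups overlapped at both weeks, though 5 of 8 treated animals were above every placebo animal at week 15. The difference between week 15 and the low-dose weeks was 1.43 ± 0.37 (adjusted p = 0.0186), and 1.05 with week 3 alone (adjusted p = 0.257).

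A list of 12 proliferation genes moved with TRIM59. At week 0, 7 of the 12 were called lower, and the list took 0.0131% to 0.0239% of reads (median 0.0189%) under placebo and 0.00877% to 0.0188% (median 0.0128%) under wIFN-α. At week 15, 11 of 12 were called higher, at 0.0117% to 0.0162% (median 0.0132%) and 0.0113% to 0.0385% (median 0.0218%). Across 149 biopsies log2 CPM of TRIM59 and the list's share had a Pearson r of 0.697 and a Spearman rho of 0.636, a description over samples that share animals. The part of proliferating cells in the TRIM59 values was not tested.

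TRIM33, the TIF1 cofactor that ubiquitinates SMAD4, was further below the placebo group at week 15 than at the low-dose weeks, with a difference of -0.42 ± 0.12 (edgeR adjusted p = 0.0437). It ran from 11.7 to 16.98 CPM (median 14.9) against 10.4 to 16.1 CPM (median 14.3) at week 0 and from 16.6 to 32.6 CPM (median 18.7) against 12.2 to 18.0 CPM (median 13.8) at week 15. The groups overlapped at both weeks, and its log2 fold change was -0.10 ± 0.08 and -0.51 ± 0.13 (adjusted p = 0.0036), the latter below the fold limit. The difference had an adjusted p of 0.0622 with another normalization and of 0.179 without the biopsies over 1% muscle reads.

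Before treatment and after it no member was called by edgeR. At week -3, 0 of 46 members passed, with 0 at an unadjusted p under 0.05, and 0% of all genes were called. At week 19, 0 of 43 passed, with 8 at an unadjusted p under 0.05 (0% of all genes), and at week 23, 0 of 43, with 6 (0% of all genes). The log2 fold changes of TRIM25 and TRIM6 at week 19 were 0.19 and -0.16, and those of TRIM21 and TRIM78P 0.23 and -0.17. limma-voom also called 0 members at these 3 weeks. The shares of 0% hold for the weekly edgeR fits. Over all genes DESeq2 called 40 higher and 49 lower at week 19 and 21 and 32 at week 23, and 1 edgeR fit of all weeks called 116 and 127 at week 23, where it called TRIM3 lower (-0.68, adjusted p = 0.0166).

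DESeq2 called TRIM3, an E3 ligase of neurons, lower at week 19 (log2 fold change -0.82, adjusted p = 0.00691) and TRIM66 lower at week 23 (-0.84, adjusted p = 0.0490). The level of TRIM3 lay between 13.8 and 27.3 CPM in 5 placebo animals (median 17.04) and between 8.37 and 12.4 CPM (median 10.2) in 6 wIFN-α animals at week 19. TRIM66 lay between 3.59 and 8.52 CPM (median 3.91) and between 2.52 and 3.21 CPM (median 2.90) at week 23. Neither pair of ranges overlapped, but in edgeR the adjusted p was 0.266 for TRIM3 and 0.256 for TRIM66. These 2 genes were chosen after their values were seen.

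Levels of different members can be compared per length. In the 81 placebo biopsies the highest median levels per kilobase of transcript were those of TRIM28 (26.0 CPM per kilobase), TRIM27, an E3 ligase of endosomal trafficking (23.4), TRIM39-RPP21 (17.4), TRIM44, a RING-less deubiquitinase-like protein (16.2), and TRIM25 (13.6). The derived length was 1000 bases for both TRIM39-RPP21 and TRIM78P, where TRIM39 had 4678, so the levels per kilobase of these 2 entries are uncertain. The order changed under wIFN-α. At week 15 the mean of TRIM25 was 15.2 CPM per kilobase under placebo and 61.9 under wIFN-α, that of TRIM21 5.11 and 42.5, that of TRIM34 4.36 and 32.3, and that of TRIM14 6.70 and 29.6. TRIM6 remained a low-level gene per length in spite of its fold change, at 0.386 and 4.04.

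**Figure D4:**
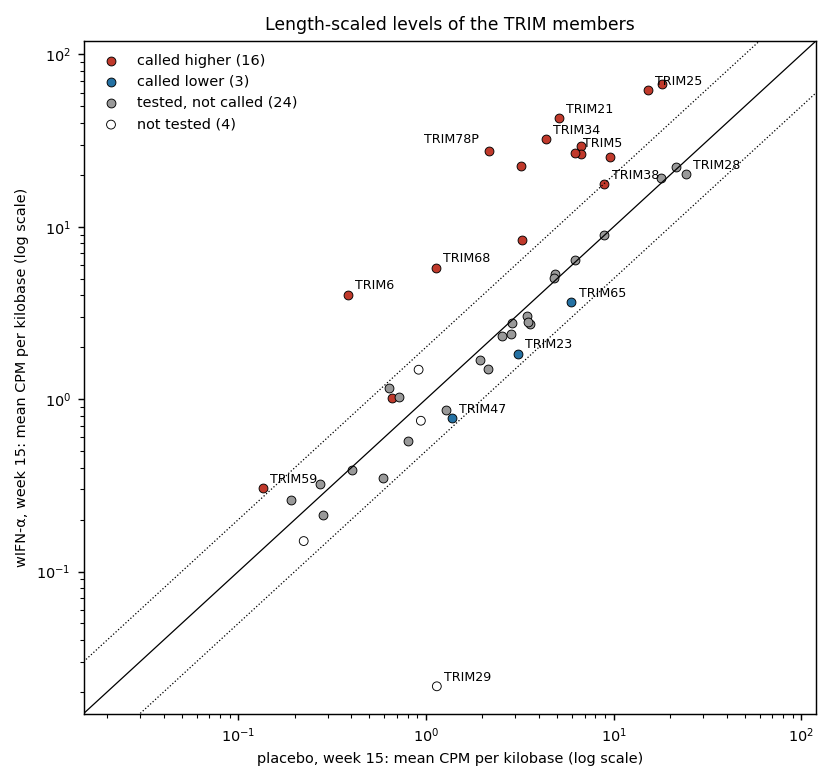
Mean level per kilobase of transcript at week 15 in the placebo group (x axis) and the wIFN-α group (y axis), both in CPM per kilobase on log axes, for each member. The solid line marks equal levels and the dotted lines a 2-fold difference; the 16 members called higher lie above the solid line, the 3 called lower below it, and open circles were not tested.

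Members never called included some of the most abundant. TRIM44 had log2 fold changes of 0.10 to 0.23 at the treatment weeks, TRIM27 of -0.24 to 0.36, and TRIM11, an E3 ligase, of -0.01 to 0.06. TRIM8, which acts on the interferon inhibitor SOCS1, had -0.06 to 0.15. TRIM24, a cofactor of nuclear receptors, had -0.33 to 0.08. By C-terminal class, the 19 members listed as PRY-SPRY gave 9 higher and 1 lower at week 0, and 9 and 2 at week 15, where all genes gave 10.3% and 8.15%, and 13.4% and 8.83%. TRIM14 and TRIM16, listed as RING-less PRY-SPRY, were counted apart, and TRIM60 had no class. The 4 PHD-bromodomain members gave 1 higher and 1 lower at week 0 and edgeR called 0 of them at week 15 (2 at an unadjusted p under 0.05). With 4 members, these counts cannot be set apart from the shares of all genes.

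The 4 muscle members followed the amount of skeletal muscle in the biopsy. A list of 23 skeletal muscle genes took a median of 0.0429% of reads and more than 1% in 22 of 149 biopsies. TRIM72, a membrane repair protein, lay between 29.1 and 731 CPM (median 67.2) in those 22 and between 3.51 and 44.4 CPM (median 5.58) in the other 127. TRIM63, the atrophy ligase MuRF1, lay between 4.96 and 512 CPM (median 29.5) and between 0 and 14.96 CPM (median 0.0982), and the sarcomere proteins TRIM54 and TRIM55 had medians of 28.1 and 4.88 CPM against 0.0232 and 0.145 CPM. The ranges of TRIM72 and TRIM63 overlapped between the 2 sets of biopsies. Pearson r with the muscle share was 0.964 for TRIM72, 0.968 for TRIM63, 0.980 for TRIM54 and 0.946 for TRIM55 over 149 biopsies.

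TRIM72 ran from 4.26 to 71.7 CPM (median 6.60) under placebo and from 4.88 to 245 CPM (median 5.58) under wIFN-α at week 0, and from 3.64 to 31.5 CPM (median 5.46) and 4.50 to 22.9 CPM (median 6.06) at week 15. The groups overlapped, and its log2 fold changes ran from -1.57 ± 0.85 at week 3 (edgeR adjusted p = 0.198) to 0.86 ± 0.78 at week 0. Without the muscle-rich biopsy of F1018 at week 3, TRIM72 was called lower there, and without all biopsies over 1% muscle reads it was not (-0.94, adjusted p = 0.149). TRIM54 reached 34.6 CPM under placebo and 137 CPM under wIFN-α at week 0 (medians 0.439 and 0.0273 CPM), and 11.3 and 6.63 CPM at week 15 (medians 0.0268 and 0.0560 CPM). Its high values came from few animals of either group. TRIM63 reached 60.1 and 169 CPM at week 0 (medians 1.64 and 0.0818 CPM) and 9.16 and 14.96 CPM at week 15 (medians 0.134 and 0.0662 CPM). TRIM55 reached 5.52 and 24.8 CPM at week 0 (medians 0.204 and 0.0827 CPM) and 2.26 and 1.68 CPM at week 15 (medians 0.227 and 0.146 CPM). TRIM54, TRIM55 and TRIM63 were too low for the test except at weeks -3, 3 and 11, where edgeR called none. DESeq2 called TRIM63 lower at week 3 (-3.35, adjusted p = 0.0304). At week 3 the muscle share itself had a median of 0.796% under placebo and 0.0419% under wIFN-α, so treatment and muscle content cannot be told apart there for these genes.

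**Figure D5:**
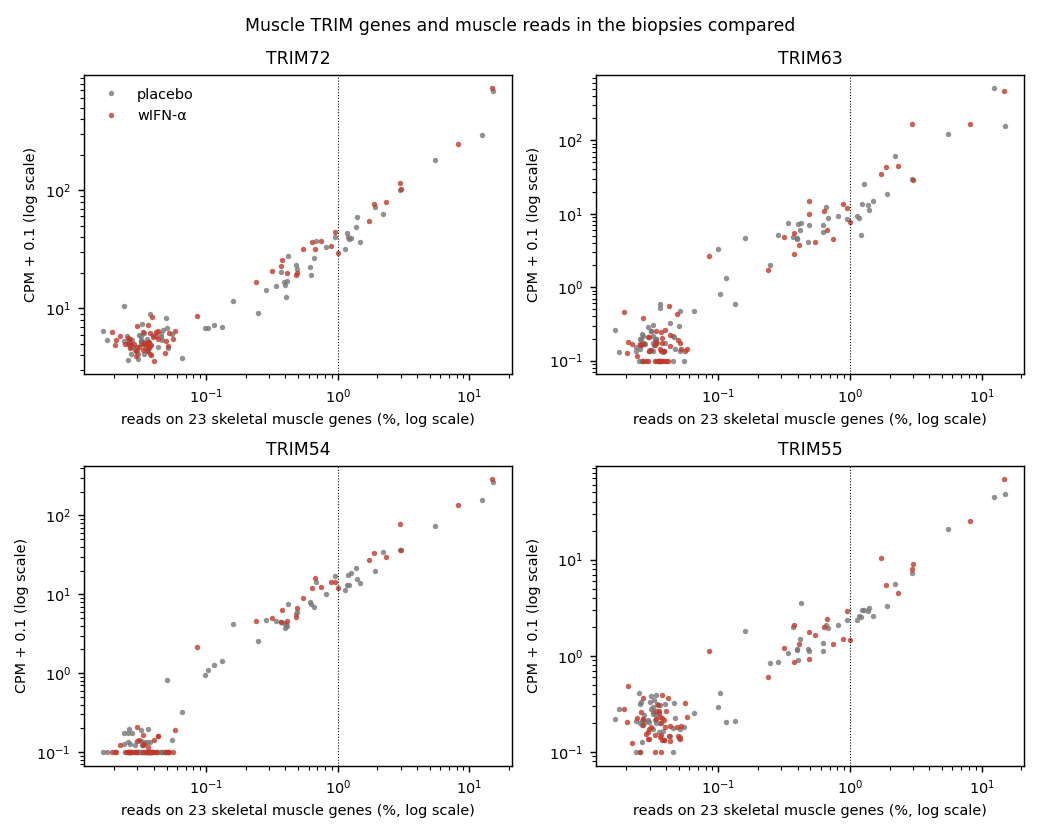
TRIM72, TRIM63, TRIM54 and TRIM55 (CPM plus 0.1, log axis) against the percent of reads on 23 skeletal muscle genes (log axis) in the 149 biopsies, placebo and wIFN-α animals marked by colour. The points of both groups follow 1 rising band, with r from 0.946 to 0.980.

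Further lists hold the members' relatives and pathways, namely 13 TRIM relatives that carry other names and 30 substrates and partners of TRIM proteins. Among the relatives, week 0 gave 2 higher and 1 lower of 10 tested, and week 15 gave 1 and 2 of 11, beside 10.3% and 8.15% of all genes at week 0 and 13.4% and 8.83% at week 15. PML, the nuclear body protein, was higher at every treatment week. It rose from 17.5 to 38.3 CPM (median 32.3) to 194 to 383 CPM (median 304) at week 0 and from 30.4 to 42.7 CPM (median 39.0) to 312 to 434 CPM (median 361) at week 15, a log2 fold change of 3.30 and 3.26 ± 0.09 (edgeR adjusted p = 1.38e-14). BSPRY, a B-box and SPRY protein of epithelia, was lower at every treatment week, at 6.50 to 15.6 CPM (median 9.84) against 2.41 to 5.05 CPM (median 3.19) at week 15, a log2 fold change of -1.44 ± 0.18 (adjusted p = 6.12e-06). MID1, a microtubule-associated E3 ligase, was not tested at week 0 and was called lower at weeks 3, 7, 11 and 15 (-1.10, -2.13, -1.49 and -1.32 ± 0.31, edgeR adjusted p = 0.00244 at week 15). At week 15 it ran from 0.321 to 0.572 CPM (median 0.432) against 0.0438 to 0.347 CPM (median 0.121). Both medians lay below the 0.5 CPM asked of TRIM members, so the size of its fold change is uncertain.

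At week 0, 15 of the 30 partners were called higher and 1 lower, with the same counts at week 15, against 10.3% and 8.15% of all genes at week 0 and 13.4% and 8.83% at week 15, and the list's median log2 fold change was 0.59 at both weeks. Higher at every treatment week were 12 of the 30 (all genes about 7.24% at most, their week 3 share), namely the RNA sensors DDX58 (RIG-I) and IFIH1 (MDA5), the DNA sensor MB21D1 (cGAS) and its adaptor TMEM173 (STING), the kinase TBK1, the adaptors TRAF6 and OPTN, the factor IRF7, the inhibitor SOCS1, the antiviral protein ZC3HAV1 (ZAP), and ISG15 with its conjugating enzyme UBE2L6. Thus TRIM25 and its partners DDX58 (log2 fold change 3.34 at week 0 and 3.19 at week 15) and ZC3HAV1 (1.15 and 1.48) were all called higher. IFIH1 was higher at both weeks while its ligase TRIM65 was lower.

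The 3 highest partners at week 15 were ISG15, MB21D1 and IFIH1. ISG15, the ubiquitin-like modifier, ran from 5.77 to 25.1 CPM (median 8.62) under placebo and from 667 to 1073 CPM (median 789) under wIFN-α, a log2 fold change of 5.92 ± 0.33. MB21D1 ran from 0 to 0.286 CPM (median 0.146) and from 2.91 to 4.85 CPM (median 4.03), with 4.74 ± 0.31. The placebo levels of MB21D1 lay below the 0.5 CPM asked of TRIM members. The size of its fold change, and so its rank, is therefore uncertain. IFIH1 ran from 10.4 to 22.6 CPM (median 16.3) and from 185 to 358 CPM (median 293), with 4.11 ± 0.16. None of the 3 overlapped between groups. CARD9, the adaptor of fungal receptors, was the lone partner called lower at every treatment week. It ran from 2.51 to 7.53 CPM (median 4.28) under placebo and from 0.941 to 2.38 CPM (median 1.32) under wIFN-α at week 0, without overlap (log2 fold change -1.72 ± 0.20), and from 2.34 to 5.83 CPM (median 2.70) and 1.67 to 2.94 CPM (median 2.15) at week 15, with overlap (-0.62 ± 0.19, edgeR adjusted p = 0.0144).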

How the data were processed

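The authors made poly(A) libraries, mapped paired reads with Bowtie2 to their woodchuck transcriptome assembly, whose genes carry symbols given by homology, and used SAMtools for counting. Expected counts per gene, deposited without any normalization by the authors, were used here. Fractions make up 118 of the 3368022 entries above 0. The deposited RPKM values by the authors served only to derive transcript lengths. Genes a run does not list were taken as 0, and the virus entry was left out of library sizes.

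Runs of a biopsy were summed and rounded. From 203 runs, 149 biopsies were compared, while 7 of M1004, which the study also left out, and 8 of other weeks or labelled as died were not. Label weeks 1 to 24 are study weeks 0 to 23. Each week was fitted with edgeR 4.0.16 (R 4.3.3; TMM, filterByExpr, quasi-likelihood test, Benjamini-Hochberg over all genes tested). Correlations used log2 values with 0.1 CPM added. Alternatives used DESeq2 1.42.0, limma 3.58.1 and the settings given in the closing section. The tests were tested on simulated data. Members and lists were chosen with earlier results of these data known. Full values were given to members called in at least 3 of 5 treatment weeks, the 5 highest and 5 lowest called at week 15, those that passed a test between weeks, those called in both directions, the 4 muscle genes, and the 3 highest and lowest called genes at week 15 of the other lists.

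The labels give each animal's number, which pairs its biopsies. Over 13916 genes, deviations from the group mean had a median correlation of 0.374 between biopsies of the same animal (95 pairs, 63 of them above 0.1) and -0.003 between other animals of the group (985 pairs). Sequences were not used here. Of 47 members, 37 matched a symbol of the woodchuck RefSeq annotation. With 12072840 to 84805845 reads per biopsy, a member at 0.5 CPM rests on few reads in the shallowest biopsies.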

Additional observations from a re-analysis of the deposited data

Results flagged for a closer look

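In 50 groups of members and arms screened at week 15, 8 had an animal far from the others, where chance flags about 5 percent of groups. In the placebo group M1008 stood high for TRIM39 (42.4 CPM), TRIM34 (28.3 CPM), TRIM6-TRIM34 (18.0 CPM) and TRIM6 (2.71 CPM), and this is the biopsy whose 2 runs differed. F1016 stood high in the placebo group for TRIM65 (26.0 CPM) and TRIM33 (32.6 CPM). In the wIFN-α group F1014 stood high for TRIM39 (198 CPM) and TRIM39-RPP21 (107 CPM). The 2 entries of each readthrough pair may share reads, so these are not separate observations.

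The effect at week 15 differed from that at weeks 0 and 3 by 0.70 for TRIM25, 1.43 for TRIM59 and -0.42 for TRIM33 on the log2 scale, by the joint test given above.

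M1004, a wIFN-α animal that entered no comparison, had all 14 raised members above every placebo animal at each of weeks 0, 3, 7, 11 and 15, and 0 of them at weeks -3 and 19. The paper left this animal out because it was likely clearing WHV naturally. The placebo biopsies are those used to pick the 14, and the share of all genes above every placebo animal in M1004 was not counted.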

How the results depend on the processing

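Of 830 fold changes of named members under the alternatives, 805 kept their direction and side of the threshold, 17 lost a call, 8 gained a call and 0 reversed, and 251 of 281 counts stayed within 1.5 times of the value reported. The counts of lowered members moved most. With a fold change above 2 they were 2, 0, 0, 1 and 0 at weeks 0, 3, 7, 11 and 15, by construction. At week 3 they were 4 with DESeq2, 2 with M1004 included and 0 to 4 without single wIFN-α animals. At week 19 DESeq2 gave 1 lowered member, and at week 23 DESeq2 and the joint fit of all weeks each gave 1. Taking each animal's change from week -3 with a replicate block gave 13 raised and 2 lowered members at week 0 and 14 and 1 at week 15. Without F1016 and F1018, whose week -3 biopsies held almost no hepatocyte reads, the same replicate block gave 14 and 4, and 15 and 4, a setting chosen after seeing the data. The shares of all genes in these fits from week -3 are not given here. In the test of week 15 against weeks 0 and 3 the replicate block gave 4 positive and 3 negative differences, and week 3 alone gave 0 and 0. RLE size factors and leaving out biopsies over 1% muscle reads each gave 0 negative. Between weeks 3 and 0 the replicate block gave 1 positive difference. Without the muscle-rich biopsies the correlations with muscle reads were 0.933 for TRIM72, 0.940 for TRIM63, 0.967 for TRIM54 and 0.878 for TRIM55. Leaving out single animals at week 15 gave 16 to 17 raised and 3 to 4 lowered members. The cause of these shifts was not tested. TRIM37 at week 15 lay near the fold limit and passed it in 6 alternatives. Promoter motifs were planned and not run.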

Other observations

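The week -3 biopsies of F1016 and F1018, in which skeletal muscle genes took 15.03% and 14.89% of the reads, give the TRIM family in a sample that is mostly not liver. Of the 47 members, 11 lay above all 21 other week -3 biopsies in both of them and 18 below. The share of all genes outside that range was not counted, so these counts cannot be read as a trait of the family. TRIM14 was at 2.56 and 1.80 CPM, where the other 21 ran from 23.03 to 44.7 CPM, and TRIM5 at 9.92 and 8.85 CPM, where they ran from 27.1 to 46.2 CPM. TRIM23 was at 78.3 and 57.2 CPM against 7.35 to 14.7 CPM, TRIM44 at 197 and 167 CPM against 50.3 to 83.3 CPM, and TRIM45 at 8.36 and 7.95 CPM against 0.621 to 2.08 CPM. TRIM26 (35.2 and 38.5 CPM) and TRIM68 (6.41 and 4.07 CPM) overlapped the others. These members were chosen after their values were seen.

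TRIM29, an epithelial TRIM protein, passed the level limit through few biopsies. It had no read in 74 of 149 biopsies, was under 1 CPM in 138 and over 10 CPM in 10, and reached 94.4 CPM in wIFN-α animal M1012 at week 3 and 76.5 CPM in placebo animal M1008 at week 0. The same 2 biopsies held 574 and 399 CPM of KRT5, a keratin of stratified epithelia chosen after the values were seen. Across the biopsies log2 CPM of TRIM29 and KRT5 had a Pearson r of 0.964 and a Spearman rho of 0.459. Apart from that of M1012, all biopsies over 10 CPM of TRIM29 came from placebo animals. Without the filter on low counts, and in 1 fit of all weeks, TRIM29 was called lower at weeks 0, 7, 11 and 15. The fit of all weeks also called it higher at week 3.

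Among the biopsies left out for their week, some are labelled as from animals that died and carry no week. Those of placebo animals had 0 of the 14 raised members above every placebo biopsy of all weeks. Of the wIFN-α animals, M1002 had 1 at week 25, after treatment, and M1006 had 12 at week 2. The biopsies labelled as died had 14 in M1007, 6 in F1023 and 1 in F1020. Their time since the last dose is not in the labels. Below the level limit, TRIM58 was called lower at week 15 (log2 fold change -0.83, edgeR adjusted p = 0.0108). TRIM69 was too low for the test at week 15 and ran from 0 to 0.0934 CPM (median 0.0716) under placebo and from 0 to 1.87 CPM (median 0.242) under wIFN-α.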
